A study of Homo sapiens with 4 samples.

Results

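ENO1 with ENO1-AS1, and ATP5PO (older symbol ATP5O) with LINC00649, are 2 gene pairs in which a gene for an energy-producing protein shares its start region with a noncoding feature on the other strand. The 4 features were found by name among 59385 in the deposited count table, where each has 1 entry. They were chosen by their counts in the BHB and control libraries, ENO1-AS1 having stood out as lower with BHB in an earlier fit, so their own values in that contrast are descriptions and carry no test. RNA came from C4-2 cells, a human castration-resistant prostate cancer line, cultured for 3 days in RPMI medium with 50 mM of the ketone body β-hydroxybutyrate (BHB) (2 libraries) or in RPMI medium without it (control, 2 libraries). All libraries come from this 1 line, and nothing in the labels tells whether replicates 1 and 2 were separate cultures, so spreads and tests between them may be technical.

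Enolase 1, the product of ENO1, carries out the penultimate step of glycolysis, in which phosphoglycerate loses water to become phosphoenolpyruvate, and it is the enolase of most proliferating cells. ATP5PO encodes OSCP, the oligomycin sensitivity conferral protein, which sits at the tip of the peripheral stalk of mitochondrial ATP synthase and holds the catalytic head still while the rotor turns. Ketone bodies such as BHB are burned in mitochondria, where ATP synthase makes ATP, while glycolysis breaks down glucose. ENO1-AS1 and LINC00649 are annotated as antisense noncoding genes, and no protein is assigned to either.

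Both pairs are arranged head to head. On GRCh38 in GENCODE release 29, ENO1 lies on the minus strand of chromosome 1 (8861000 to 8879250), and ENO1-AS1 on the plus strand (8878835 to 8879894). The gene bodies overlap over 416 bases, and 126 exonic bases of ENO1-AS1, its whole first exon, lie opposite ENO1 exons, which is 27.6% of its 456 exon bases and 2.39% of those of ENO1. That overlap belongs to longer ENO1 transcripts, because the RefSeq start of ENO1 is at 8878686 and ENO1-AS1 begins 149 bases away on the other side of it, reading outward. ATP5PO lies on the minus strand of chromosome 21 (33903453 to 33915980) and LINC00649 on the plus strand (33915534 to 33977691). Here the noncoding feature begins 270 bases inside ATP5PO, counted from the RefSeq start, so that its first exon is opposite the coding gene. Of its 14336 exon bases in 19 exons, 300 (2.09%) lie opposite ATP5PO exons and 14036 lie beyond. The table gives 1 count per feature, so it cannot show in which of these exons the reads fell. Exon lengths in the table were the same as in release 29 for ENO1-AS1 and LINC00649 but not for ENO1 (5216 against 5276 bases) and ATP5PO (3170 against 3336), whose gene models therefore differ in part.

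**Figure D1:**
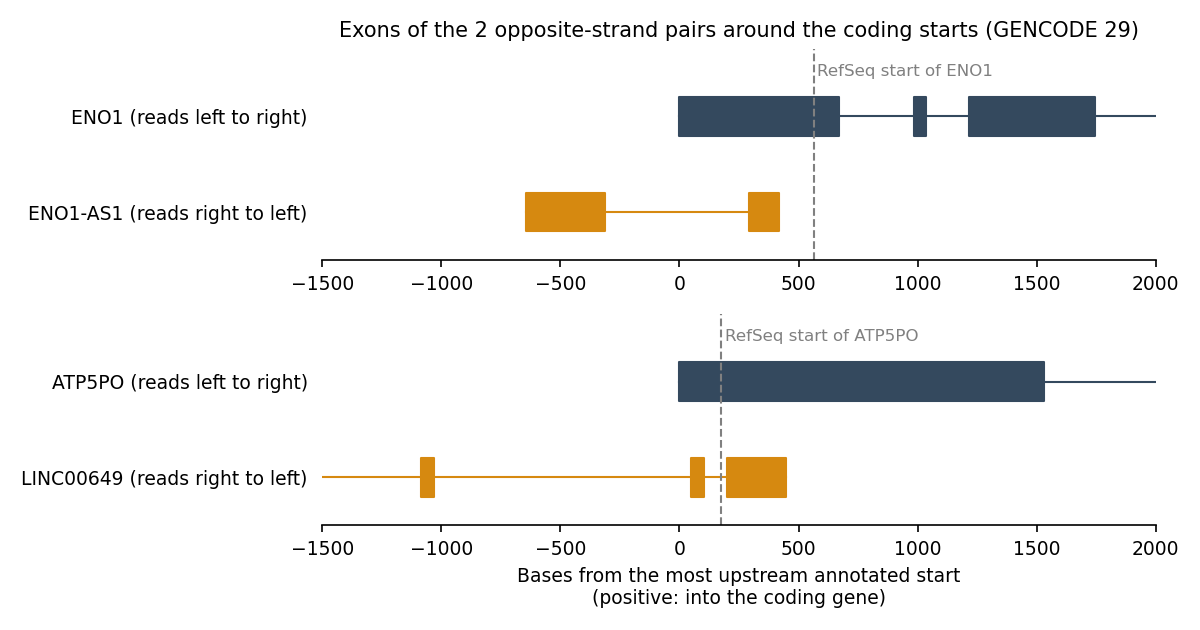
Exon maps of both pairs around the coding start, as bases from the most upstream start that GENCODE 29 annotates for the coding gene (positive into the coding gene), with the RefSeq start dashed. ENO1-AS1 has 126 and LINC00649 has 300 exonic bases opposite exons of the coding gene.

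The start regions of ENO1 and ATP5PO are shown because exons of the opposite feature cross both. Each is the RefSeq window on GRCh38.p14 from 250 bases before to 50 bases after the coding start, 5′ to 3′ on the minus strand, chr1:8878637-8878936 for ENO1 and chr21:33915755-33916054 for ATP5PO. Capitals mark the bases that lie in exons of the feature on the other strand, 102 for ENO1-AS1 and 79 for LINC00649.
ENO1: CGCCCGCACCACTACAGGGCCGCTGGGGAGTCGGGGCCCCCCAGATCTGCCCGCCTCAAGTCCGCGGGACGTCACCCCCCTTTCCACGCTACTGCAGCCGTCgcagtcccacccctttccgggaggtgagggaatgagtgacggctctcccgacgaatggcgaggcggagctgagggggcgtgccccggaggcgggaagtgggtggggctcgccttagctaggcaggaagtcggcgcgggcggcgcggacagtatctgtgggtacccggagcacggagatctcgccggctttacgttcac
ATP5PO: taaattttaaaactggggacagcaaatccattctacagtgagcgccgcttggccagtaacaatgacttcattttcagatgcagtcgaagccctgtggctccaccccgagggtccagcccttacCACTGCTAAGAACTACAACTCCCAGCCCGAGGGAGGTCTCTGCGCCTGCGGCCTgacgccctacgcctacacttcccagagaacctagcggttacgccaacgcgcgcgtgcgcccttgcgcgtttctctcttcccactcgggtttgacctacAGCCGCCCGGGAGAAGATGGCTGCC

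The RefSeq window of ENO1-AS1 overlaps that of ENO1 over 248 bases, read on the other strand, because the 2 starts lie 149 bases apart. Whether each side has a promoter of its own was not tested. The ENO1 window is 69.7% G and C, the ATP5PO window 58.3%, and the median over 35116 windows of all genes is 58.7%. Searched on both strands, the GC box (GGGCGG) occurred once in each window, 13 bases before the start in ENO1 and within the transcribed bases in ATP5PO, and 45.0% of all windows hold it. The motif of NRF1 (GCGC and GCGC with 2 bases between them), a factor known for its sites in genes of mitochondrial respiration, occurred once in the ATP5PO window, 24 bases before the start, and not in that of ENO1, and 8.32% of all windows hold it. The ACGTG form of the hypoxia-factor core, the TATA box (TATAAA) and the CCAAT box (CCAAT) had no match in either window. These occurred in 21.4%, 11.5% and 34.6% of all windows. Both windows hold GCGTG, the other form of that core, which was not part of the search. No match of the searched motifs overlapped another.

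The libraries held between 2233711 and 2565080 counts. All 8 luminal prostate markers on the list had counts in every library, with sums of 10416 and 10155 in BHB replicates 1 and 2, and 12438 and 12706 in control replicates 1 and 2. KRT8, a luminal keratin, made up most of each sum, and the other 7 markers summed to 1051 and 934 with BHB, against 1607 and 678 in controls, so the sums of the controls were apart with both BHB libraries between them, as for ENO1 below. Their part in the results was not tested. Of 4 basal, 6 fibroblast, 4 endothelial and 4 leukocyte markers, 3, 4, 2 and 4 had no count in any library, and no list's sum passed 12 counts. The edgeR quasi-likelihood fit of 9295 features called 0 of them (0%) at a Benjamini-Hochberg adjusted p under 0.05. At an unadjusted p under 0.05 edgeR had 210, and DESeq2 called 0, with 138. In counts simulated with the means, library sizes and common dispersion of these data, the edgeR fit recovered 38% of 4-fold and 1% of 2-fold changes. A lack of calls therefore does not show a lack of change. The 2 controls stood further apart than the BHB libraries, with a chi-square per degree of freedom of 12.6 between the controls and 2.44 between the BHB libraries. Values are counts listed under a name. The kit was stranded, but the strand setting of the counting is not given in the sources used here, and whether counts listed under one side of a pair came from RNA of the other side was not tested.

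ENO1, the enzyme gene, had 389 and 445 counts in BHB replicates 1 and 2, against 1303 and 218 in control replicates 1 and 2. Both BHB libraries thus lay between the controls, which differed 4.23-fold from each other after trimmed-mean (TMM) scaling. In CPM on that scale (counts relative to the scaled library total) this was 185.8 ± 20.3 with BHB and 290.3 ± 253.5 in controls (SD, n = 2 each), a log2 fold change of −0.65 (SE 0.56) of BHB over control. The sign depended on which control was used, with 0.73 without control replicate 1 and −1.30 without control replicate 2. The ratio of control replicate 1 to control replicate 2 was larger for ENO1 than for 91.6% of all features tested, while the BHB libraries differed by 0.857-fold. In these bulk samples fewer cells with an RNA and less of it per cell cannot be told apart.

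ENO1-AS1, on the other strand, did not follow ENO1. It had 135 and 140 counts with BHB, against 248 and 194 in controls, so both BHB libraries lay below both controls. On the scaled CPM it averaged 61.3 ± 2.44 with BHB and 94.1 ± 6.72 in controls (SD, n = 2 each), a log2 fold change of −0.62 (SE 0.26). Both BHB libraries were below both controls in 14.0% of all features tested. The controls differed by 0.904-fold, and the log2 fold change was −0.70 without control replicate 1 and −0.51 without control replicate 2. Its sign with either control alone follows from both BHB libraries lying below both controls and is no separate support. Both sides of the pair had nearly the same fitted fold change over 4 libraries. The sign depended on the control used for ENO1, while ENO1-AS1 had been chosen as lower with BHB.

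**Figure D2:**
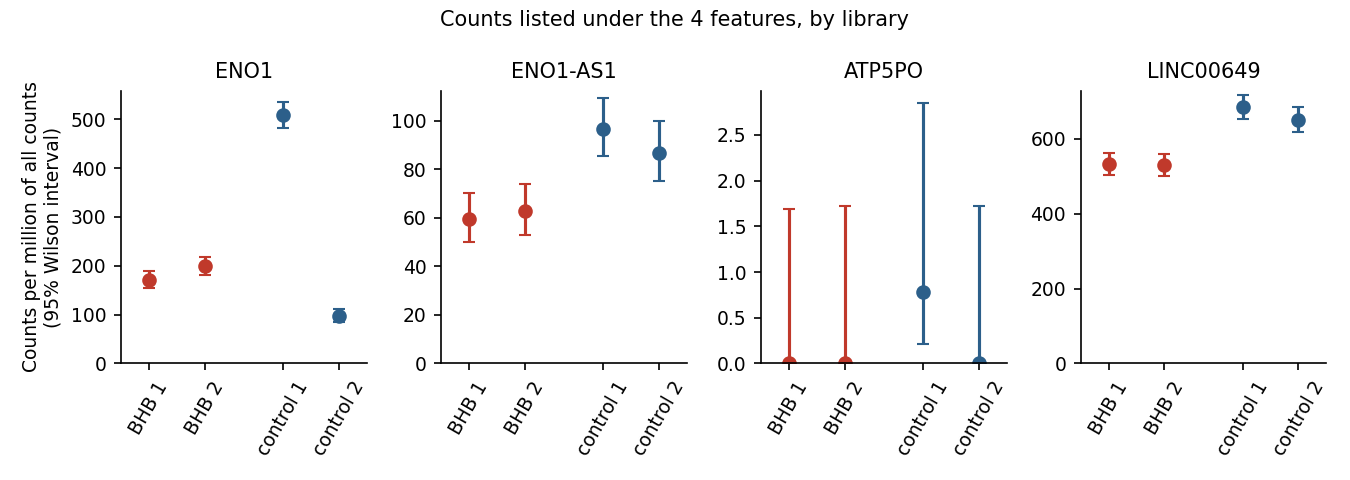
CPM, relative to all counts in a library, listed under each of the 4 features (vertical axis, own scale in each panel, 95% Wilson intervals that cover counting error only), in the BHB libraries (red) and the control libraries (blue). ENO1 had 1303 and 218 counts in the controls with both BHB libraries between them, and ATP5PO had 2 counts in all. ENO1-AS1 and LINC00649 were lower in both BHB libraries, as were 14.0% of all features tested on the scaled CPM.

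Within the ENO1 pair, the antisense feature held 25.8% (95% Wilson interval 22.2 to 29.7) and 23.9% (20.7 to 27.6) of the pair's counts in BHB replicates 1 and 2, against 16.0% (14.3 to 17.9) and 47.1% (42.3 to 51.9) in control replicates 1 and 2. The lowest and the highest share were both in controls, so the change of the log2 ratio of ENO1-AS1 to ENO1, −0.32 as BHB minus control, was −1.43 without control replicate 1 and 0.80 without control replicate 2. With 2 libraries in each group no permutation of them can give a p under the threshold, and none is given. ENO1 held more counts than ENO1-AS1 in all 4 libraries. Per kilobase of exon the order turned round, and ENO1-AS1 was 3.97 and 3.60 times as dense as ENO1 with BHB, against 2.18 and 10.2 times in controls. Like all densities here, these depend on the listed exon lengths, 5216 bases for ENO1 and 456 for ENO1-AS1. Transcripts of other lengths would change them.

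ATP5PO, the gene of the stalk subunit OSCP, was hardly counted at all. It had 0 and 0 counts in BHB replicates 1 and 2, against 2 and 0 in control replicates 1 and 2. Where none was found, as many as 3 counts are possible, which is 1.32 and 1.34 CPM of all counts in BHB replicates 1 and 2, and 1.34 CPM in control replicate 2. It was too low to be tested, and no fold change is given, since 2 counts in all cannot show a change of ATP5PO. Why so few counts were listed under it was not tested.

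LINC00649, opposite it, was among the more abundant features, with a mean count above that of 97.1% of those tested. It had 1207 and 1182 counts with BHB, against 1757 and 1456 in controls. Both BHB libraries lay below both controls, as in 14.0% of all features tested. On the scaled CPM LINC00649 averaged 531.9 ± 0.325 with BHB and 687.6 ± 77.0 in controls (SD, n = 2 each), for a log2 fold change of −0.37 (SE 0.24). That value was −0.49 without control replicate 1 and −0.21 without control replicate 2. Its sign with either control alone follows from both BHB libraries lying below both controls and is no separate support. LINC00649 ranked low in size, as 20.4% of all features tested had a lower log2 fold change, compared with 8.96% for ENO1-AS1.

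The strands of the ATP5PO locus differed far more than those of the ENO1 locus. LINC00649 held at least 402-fold and 394-fold as many counts as ATP5PO in BHB replicates 1 and 2, and at least 485-fold in control replicate 2, each against 3 counts in that library. Per kilobase of exon these bounds were 89.0, 87.1 and 107. In control replicate 1, with 1757 and 2 counts, LINC00649 held 99.9% of the pair's counts (95% Wilson interval from 99.6 upward).

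Placed features around either pair had few counts. Within 100 kb of the ENO1 pair there are 8 other placed features, of which 5 had no count and the highest mean was 12.0 counts, under RERE, a transcriptional corepressor gene. Within the same distance of the ATP5PO pair there are 4, with the highest mean of 17.75 counts under ITSN1, an endocytosis scaffold gene. The 4 listed ENO1 pseudogenes and the 1 listed ATP5PO pseudogene had 0 counts in all libraries, although the counting of reads that match several places is not given in the sources used here.

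In the enolase family ENO3 rather than ENO1 held the most counts for its length. ENO3, the muscle enolase, had the highest density, with 1612 and 1398 counts per kilobase of exon in BHB replicates 1 and 2, against 2248 and 1921 in control replicates 1 and 2. ENO1 came second, with 74.6 and 85.3 counts per kilobase with BHB, against 249.8 and 41.8 in controls. ENO4, an enolase of sperm, had 14.2 and 16.4 against 13.8 and 15.4, and ENO2, the neuronal enolase, 3.50 and 2.80 against 3.50 and 2.34, in the same unit and order. No neighbours in that order overlapped over the 4 libraries. ENO3 (chromosome 17) has 111 exonic bases opposite PFN1, the gene of the actin-binding protein profilin 1, named here after its values were seen. PFN1 had 216 and 172 counts with BHB, against 489 and 152 in controls, while ENO3 had 6917 and 5999 against 9650 and 8246. ENO3 had both BHB libraries below both controls (log2 fold change −0.42, SE 0.24), as had 14.0% of all features tested. PFN1 did not (−0.56, SE 0.39), its BHB values overlapping those of the controls. Neither was called by edgeR.

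Of the 22 other glycolysis genes, 16 were tested and 0 were called in either direction by edgeR. Their median log2 fold change was −0.45, against −0.03 over all features tested, with 13 of 16 below 0, against 4911 of 9295. In 11 of the 16 both BHB libraries lay between the controls, as for ENO1, compared with 37.5% of all features tested. GAPDH, the dehydrogenase of the middle of the pathway, had 437 and 475 counts with BHB, against 1791 and 301 in controls (log2 fold change −0.98, SE 0.56). PKM, the pyruvate kinase that uses the product of enolase, had 439 and 463 against 1316 and 162 (−0.48, SE 0.64). LDHA, which turns pyruvate into lactate, had 223 and 279 against 1015 and 77 (−0.86, SE 0.78). With limma-voom and with the replicate block the log2 fold change was −0.66 and −0.65 for GAPDH, −0.014 and −0.011 for PKM, and −0.17 and −0.19 for LDHA, so its size depends on the fit. Control replicate 1 was far above control replicate 2 in all 3, by 4.21, 5.74 and 9.32 times on the scaled CPM, and both BHB libraries stood in between.

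The other genes of that shape were TPI1, PGK1, PGAM1, GPI, PFKP, PFKL and HK1, with control ratios from 2.38 for PFKP to 4.65 for PFKL, and ALDOA, the one with the lower value in control replicate 1 (0.303). HK2, PFKM and PGAM2 had control ratios of 1.03, 1.19 and 0.843, and their BHB values overlapped those of the controls. Among the 10 tested glycolysis genes with no exons opposite theirs among features placed on release 29, 9 had BHB between the controls. This compares with 2 of the 6 with such exons. For the ATP synthase genes the same split gave 3 of 7 without and 4 of 7 with such exons. Any overlap was counted, even 7 bases for HK2 and a feature with 0 counts for HK1. The split was made after the values were seen, and features with clone-style names were not placed. Without 1 control the spread in the fit comes from the BHB libraries alone, which stood closer together, and the lone control is assumed to vary like them. Without control replicate 1, edgeR called 3 glycolysis genes higher (HK1, LDHA and PKM) and 1 lower (ENO3), where 5.84% and 6.38% of all features were called higher and lower. Without control replicate 2 it called 0 higher and 9 lower, where 9.43% and 7.21% were called. The median moved to 0.28 without control replicate 1 and −1.01 without control replicate 2.

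**Figure D3:**
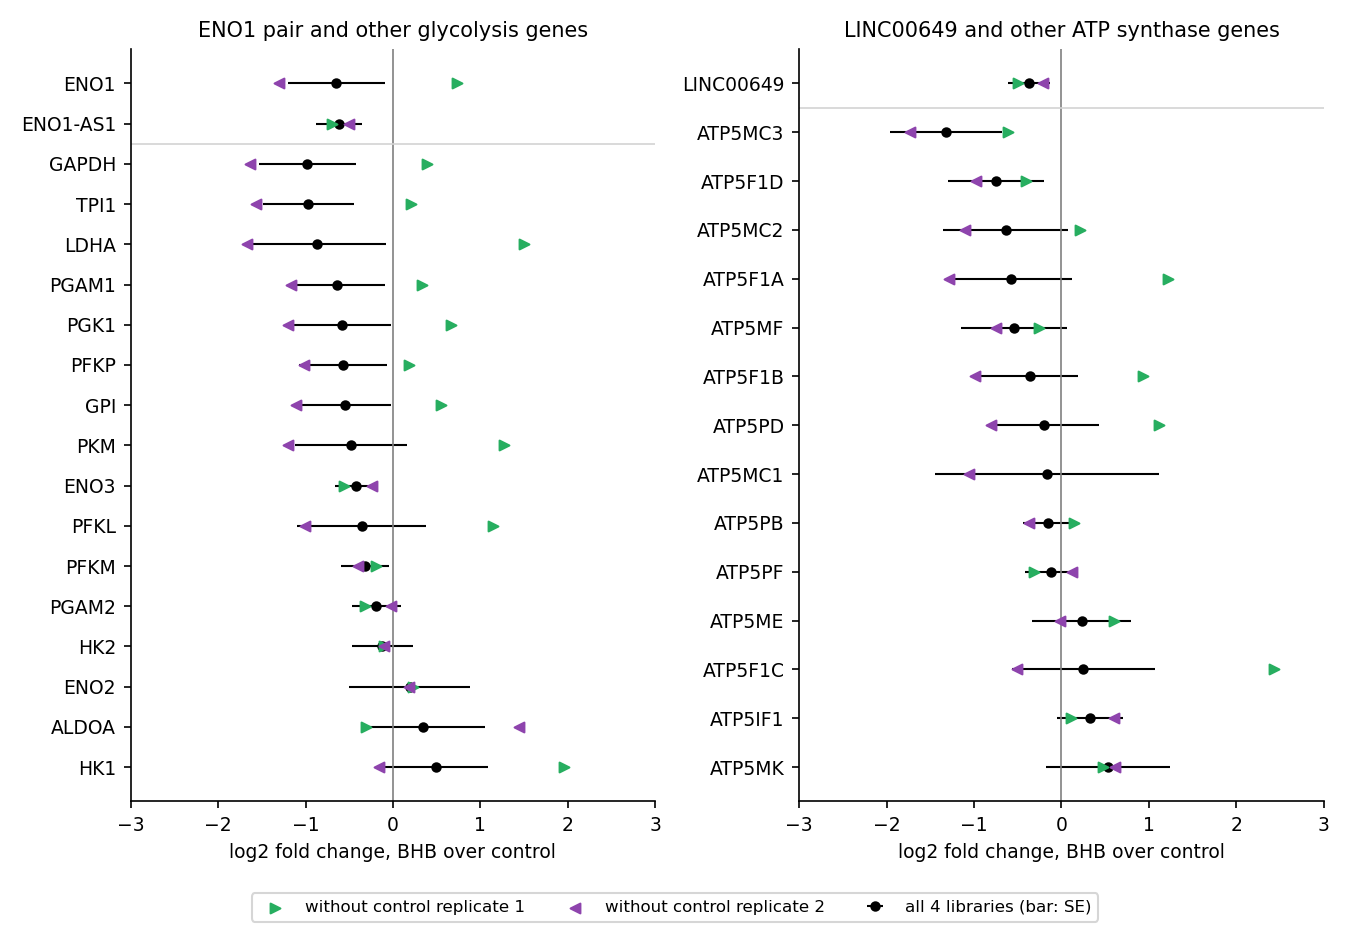
The log2 fold changes of BHB over control from the edgeR fit of all features (black, with SE), without control replicate 1 (right-pointing) and without control replicate 2 (left-pointing), for the 3 pair features that could be fitted and the tested list genes. ENO1 and most glycolysis genes changed sign with the control left out, and ENO1-AS1 and LINC00649 stayed below 0. These signs follow from whether both BHB libraries lay between or below the controls and are no separate support. ATP5MC1 without control replicate 1 lies beyond the axis.

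For ATP synthase, 14 of the 17 other nuclear subunit genes were tested and 0 were called in either direction by edgeR. The median log2 fold change was −0.18, against −0.03 over all features tested, with 10 of 14 below 0, against 4911 of 9295. In 7 of the 14 (50.0%) both BHB libraries lay between the controls, compared with 37.5% of all features tested. ATP5PO stood apart from the other peripheral stalk genes in level. ATP5PB, the membrane-anchored arm of the stalk, had 81.9 and 92.7 counts per kilobase of exon in BHB replicates 1 and 2, against 143.1 and 68.5 in control replicates 1 and 2. ATP5PF, coupling factor 6, had 59.2 and 59.7 against 69.7 and 64.2, and ATP5PD had 9.59 and 12.1 against 24.1 and 4.33, in the same unit. ATP5PO had 0 and 0 against 0.631 and 0, and the 3 counts that a 0 allows would be 0.946 per kilobase. ATP5PB and ATP5PF overlapped in this order, and ATP5PD and ATP5PO did not overlap any of the others.

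The log2 fold changes of the 3 stalk genes were −0.16 (SE 0.28) for ATP5PB, −0.12 (SE 0.29) for ATP5PF and −0.20 (SE 0.63) for ATP5PD, which was at 0.048 with the replicate block. In the catalytic head, ATP5F1B, the beta subunit, had 141 and 102 counts with BHB, against 305 and 55 in controls, and ATP5F1A, the alpha subunit, 51 and 41 against 143 and 17. Both repeated the ENO1 arrangement, with BHB between widely separated controls. The subunits with both BHB libraries below both controls were ATP5F1D and ATP5MC3 (log2 fold change −0.75, SE 0.55, and −1.32, SE 0.64), 2 of 14, against 14.0% of all features tested. ATP5IF1, the inhibitory factor, and ATP5MK had both above both controls (0.33, SE 0.38, and 0.53, SE 0.71), as had 15.1% of all features tested. Without control replicate 1 edgeR called 3 subunit genes higher and 0 lower, where 5.84% and 6.38% of all features were called higher and lower. Without control replicate 2 it called 0 higher and 3 lower, where 9.43% and 7.21% were called, with the same limit of a lone control. The median was 0.34 and −0.75 in these fits. The mitochondrially encoded subunit genes MT-ATP6 and MT-ATP8 had log2 fold changes of 0.92 (SE 0.29) and 0.80 (SE 0.50), with both BHB libraries above both controls.

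Strand partners of other listed genes gave counts on either side. Only features placed on release 29 were searched, which leaves out those with clone-style names. Besides the pairs of ENO1 and ATP5PO, 18 pairs had a mean of at least 20 counts on 1 side. The feature opposite the listed gene was denser per kilobase of exon in 6. All of these were pairs of ATP synthase genes, with ATP5PD counted more than once. ATP5ME, the gene of membrane subunit e, had 28.97 counts per kilobase, and MYL5, a myosin light chain gene with 579 exonic bases opposite it, 849.6. ATP5PD had 12.5 and KCTD2 335.7, and ATP5PF had 63.2 and GABPA, which encodes an ETS-family transcription factor, 156.1. The reverse held for PGAM2 with 213.6 against 5.10 for DBNL, for ATP5PB with 96.6 against 1.96 for WDR77, and for PFKM with 44.1 against 2.13 for SENP1. ATP5PO and LINC00649, at 0.158 and 97.7, were further apart in favour of the opposite feature than any other of these pairs, and ENO1 and ENO1-AS1 were at 112.9 and 393.1. The coding genes opposite listed genes in this paragraph were named after their values were seen.

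**Figure D4:**
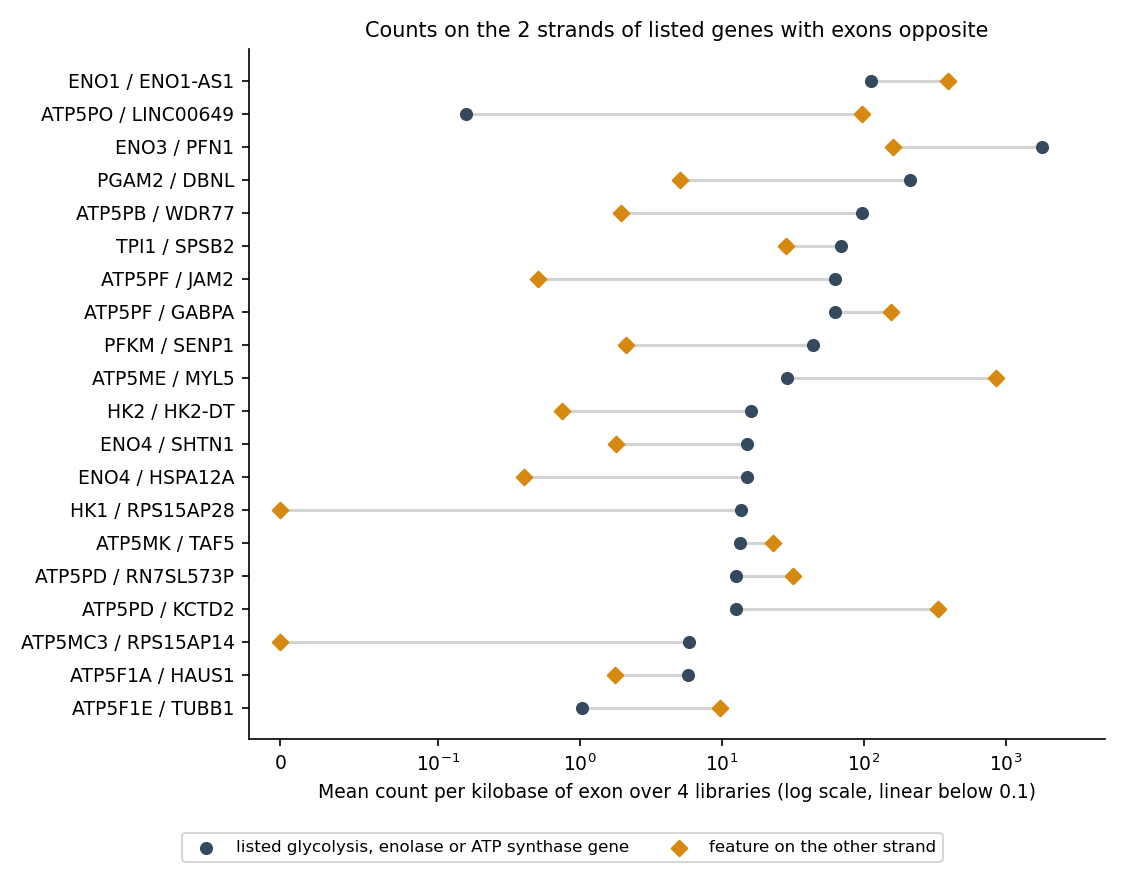
Mean count per kilobase of exon over the 4 libraries (log axis, linear below 0.1) for listed genes (circles) and the features with exons opposite them (diamonds), for pairs with a mean of at least 20 counts on 1 side. ATP5PO was at 0.158 and LINC00649 at 97.7, while ENO1 was at 112.9 and ENO1-AS1 at 393.1.

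The features whose profile over the 4 libraries lay closest to each pair feature were taken among 2790 with a mean of at least 100 counts, by the Euclidean distance between centred log2 CPM. For ENO1 these were CCT3, a chaperonin subunit gene, at 0.15, RCC1, which loads the nuclear transport GTPase Ran, at 0.16, and RPS14, a ribosomal protein gene, at 0.21, against a median distance of 1.8. ENO1-AS1 was 1.6 from ENO1, at rank 650. Closest to ENO1-AS1 was RP11-159D12.6 at 0.069, then TMPO-AS1 at 0.070 and CTD-2026K11.4 at 0.088, against a median of 0.735. LINC00649 was closest to PEX10, a peroxisome biogenesis gene, at 0.031, MIR3661 at 0.037 and COQ5, of coenzyme Q synthesis, at 0.040, against a median of 0.511. LINC00649 lay 0.262 from ENO1-AS1 and 1.64 from ENO1, so the 2 noncoding features were nearer to each other than either was to ENO1. However, LINC00649 was only at rank 94 from ENO1-AS1, and ENO1-AS1 at rank 417 from LINC00649. ENO1 was at rank 2690 from ENO1-AS1 and 2721 from LINC00649, so most features were nearer to both than ENO1 was. ATP5PO, with 2 counts in all, has no profile. With 4 libraries these distances are descriptions of these samples.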

How the data were processed

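RNA from C4-2 cells was measured in 2 BHB and 2 control libraries. The authors deposited raw counts per feature, with no normalization, and an exon length; The submitters' processing notes name featureCounts 2.0.3 and HISAT2 2.2.1, besides limma and edgeR, and the builds hg38 and GRCh38. Total counts were 2272004 and 2233711 (BHB replicates 1 and 2) and 2565080 and 2237634 (controls). The pair features and gene lists were chosen with earlier results of these data known. Counts were fitted with edgeR 4.0.16 in R 4.3.3 (filterByExpr, TMM, robust quasi-likelihood F-test, Benjamini-Hochberg adjusted p under 0.05), tested on simulated data; SE came from the F statistic. DESeq2 1.42.0 and limma 3.58.1 (voom) were alternatives. Features were placed on GENCODE release 29 by name or current symbol (39347 of 59385; clone-style names were not placed). Intervals are 95% Wilson, floors 3 counts; both cover counting error only. Genes named were the pair features, list genes with a mean of at least 20 counts, enolases, pseudogenes, neighbours within 100 kb, noncoding opposites and the 3 nearest profiles; list genes below that mean and opposite coding genes were named after their values were seen.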

Additional observations from a re-analysis of the deposited data

How the results depend on the processing

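The count of 0 features called over the whole table was also 0 with DESeq2 size factors, total counts, upper quartile scaling, 2 other filters, the DESeq2 test, limma-voom and the replicate block, and ran from 0 to 1826 when 1 library at a time was left out. Across the same runs without 1 library, the log2 fold change ran from −1.30 to 0.73 for ENO1, −0.70 to −0.51 for ENO1-AS1 and −0.49 to −0.21 for LINC00649, and the median from −1.01 to 0.28 for the other glycolysis genes and −0.75 to 0.34 for the other ATP synthase genes. The extremes of each came from leaving out a control. The change of the ENO1-AS1 to ENO1 log2 ratio ran from −1.43 to 0.80, and was −0.30 with a pseudocount of 5. ENO1 was −0.33 with limma-voom and −0.32 with the replicate block, and every other scaling, filter or test kept it within −0.72 to −0.61. The replicate block changed no call, and gave −0.62 for ENO1-AS1, −0.37 for LINC00649, −0.26 for glycolysis and −0.11 for ATP synthase. Same-numbered libraries did not deviate together (correlation −0.0179 across features). With 2 libraries per group this cannot tell whether they shared a batch. No fold change of ATP5PO and no ratio of LINC00649 to it is given, because ATP5PO had 0 counts in all libraries but control replicate 1. With 2 libraries per group, the 2 counts in all set no more than an upper limit for ATP5PO.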
